A study of Mus musculus with 4 samples.

Results

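The 43 genes described here are the measured members of cytochrome P450 families 1 to 3, the families that oxidise most drugs and other foreign compounds in the liver. They were chosen by a rule on names alone, which was set with earlier results of these data known. A probe set, the group of array probes that reports one transcript, entered if the platform annotation gave it a single gene symbol made of Cyp, a family number from 1 to 3, a subfamily letter and a gene number. The pattern matched 52 probe sets of 43 genes among the 18193 genes measured, and the 7 genes with several probe sets were each represented by the brightest over all 4 arrays. Of the 43 genes, 38 belong to the subfamilies 1a, 2a, 2b, 2c, 2d, 2e, 2f, 2j and 3a, and the other 5 are Cyp1b1, Cyp2g1, Cyp2r1, Cyp2s1 and Cyp2u1.

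Liver RNA was hybridised to 4 single-colour Affymetrix mouse arrays. All mice, controls included, carried the genotype labelled Metff/ff:ERCre+/+ (METfl/fl: TamCre+/+ in the treatment protocol), that is, a Met gene with a removable exon 16 together with a Cre recombinase activated by tamoxifen. Met encodes the receptor of hepatocyte growth factor. The treated group, labelled delta MET + EGFRi, was given tamoxifen i.p. on 5 days to delete that exon throughout the body. After 4 days of rest, canertinib was mixed into its food at an intended 80 mg/kg/day. Canertinib blocks the kinase of the epidermal growth factor receptor, EGFR. Control littermates were injected with corn oil alone, had the same rest of 4 days and received neither tamoxifen nor canertinib. Livers were taken at day 7 and day 10, counted from the start of the canertinib diet or, in controls, from the end of the rest. RNA was pooled within each group and day and hybridised to 1 array. The labels used here do not say how many animals made up a pool, their sex or age, or which promoter drives Cre. The design does not separate the loss of Met from tamoxifen, from canertinib or from altered food intake, and their effects cannot be told apart. The 2 arrays of a group come from different days, so p-values measure the spread between arrays, days included, and not that between animals.

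Cytochromes P450 are heme enzymes of the endoplasmic reticulum that insert oxygen into their substrates with electrons from P450 reductase and cytochrome b5. In the liver they are made mainly by hepatocytes, and many are most abundant around the central vein. The receptor AHR controls Cyp1a genes, and the nuclear receptors CAR and PXR respond to foreign compounds and control Cyp2b, Cyp2c and Cyp3a genes. Factors of hepatocyte identity such as HNF4A and the C/EBP proteins keep many P450 genes active. Members of a subfamily often lie side by side in the genome and are close in sequence, so that array probes for one may also bind transcripts of its neighbours.

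The median signal of an array ranged from 210.5 to 223.9 units, and the log2 signals of array pairs correlated with r from 0.923 to 0.948 across probe sets. Met had signals of 976 and 1271 units in control livers (day 7, then day 10) and 2432 and 2829 in treated livers, which checks nothing about the deletion because the position of its probes relative to exon 16 was not analysed here. Of 11 measured hepatocyte markers none passed limma's test described below (3 were higher and 1 lower at an unadjusted p under 0.05), and their median log2 difference was 0.05. Their summed signal was 461723 and 465491 units in control and 485700.0 and 424851 in treated livers. The 3 higher ones were Apob (1.60-fold over both days), Asgr1 (1.61-fold) and Hnf4a (1.82-fold). The lower one was Fabp1, with 58376 and 63240 units in control and 2909 and 26549 in treated livers. All 12 macrophage and Kupffer cell markers had a higher signal in treated livers at both days (22.9% of all genes did), and 3 of them rose by the test, C1qc, Cd163 and Vsig4. Their summed signal was 19809 and 11998 units in control and 43344 and 38427 in treated livers, and no defining marker was at the floor on all arrays. Of 8 measured neutrophil markers S100a8 (10.2-fold; limma adjusted p = 0.00306) and S100a9 (8.97-fold; 0.0307) rose, and Camp was at the floor on all arrays. Mpo and Elane differed by 1.10-fold and 1.05-fold over both days, and Csf3r was 2.93-fold higher without passing. Of the 8 neutrophil markers 5 had a higher and 1 a lower signal in treated livers at both days, beside 22.9% and 26.4% of all genes. Their summed signal was 2969.6 and 2846 units in control and 8381 and 8733 in treated livers. Of 10 T, NK and B cell markers 1 rose, Jchain of antibody-secreting cells (9.83-fold; limma adjusted p = 0.00949), with sums of 4214 and 4308 against 5242 and 5786 units. None of the 8 sinusoidal endothelial, 9 stellate and 5 cholangiocyte markers passed (1 stellate marker was higher at an unadjusted p under 0.05). All 22 measured acute phase genes were likewise higher at both days, and 9 rose. The macrophage, S100a8, S100a9, Jchain and acute phase signals thus moved with the group in which P450 values are compared below, and their part in those values was not tested. In such bulk RNA, fewer cells of a type and less RNA per cell cannot be told apart.

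The first comparison asked which P450 genes differed between treated and control livers over both days. The arachidonic acid epoxygenase Cyp2c23 fell 3.33-fold in the treated livers and was the only member that passed. No member rose. The fatty acid hydroxylase Cyp2u1 was 5.34-fold and the hydroxylase Cyp2c55 3.37-fold lower without passing, and the abundant ethanol-oxidising enzyme Cyp2e1 differed by 1.12-fold. The test was limma's moderated comparison of 2 treated with 2 control arrays on log2 signals, two-sided, with Benjamini-Hochberg adjustment over the 11993 genes above a filter on dim genes and a threshold of 0.05. Of the 43 members 36 were above that filter. Over all genes tested, 0.283% fell and 0.375% rose. At an unadjusted p under 0.05, limma placed 6 members lower (Cyp2c23, Cyp2c55, Cyp2d13, Cyp2d9, Cyp2f2 and Cyp2u1) and 1 higher (Cyp3a13), beside 6.15% and 5.93% of all genes tested. In 13 members both treated arrays lay below both control arrays, and in 4 both lay above, beside 20.4% and 17.5% of all genes.

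**Figure D1:**
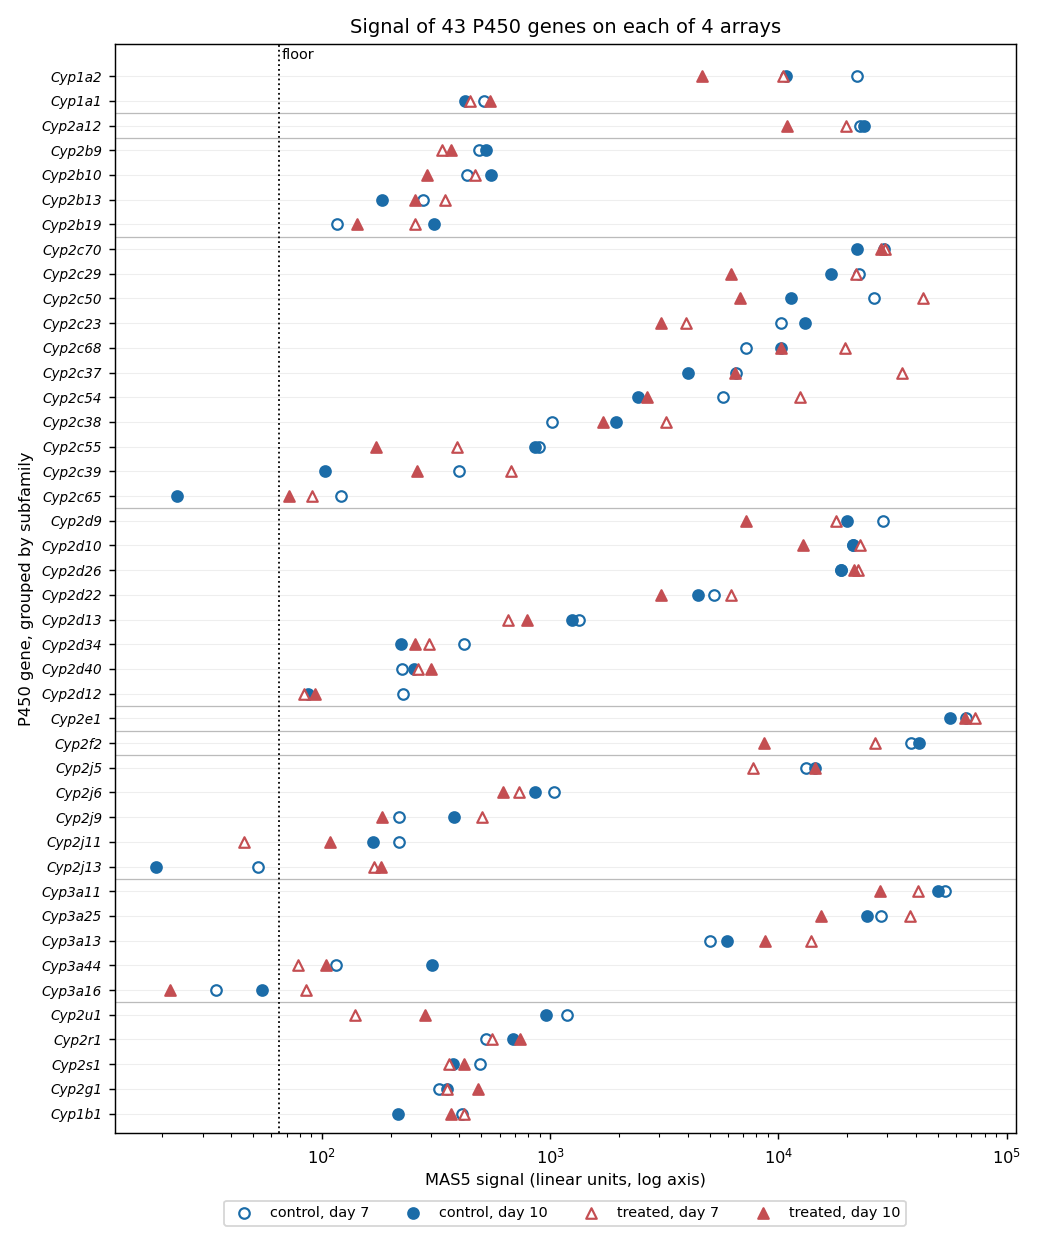
MAS5 signal of each of the 43 P450 genes (log axis) on the 4 arrays, ordered by subfamily and control mean; circles are control and triangles treated arrays, open for day 7 and filled for day 10, and the dotted line is the floor of 64.8 units. Both triangles of Cyp2c23 lie left of both circles, and the symbols of Cyp2e1 lie close together between 56708 and 72351 units.

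At each single day there is 1 array per side and therefore no test, and members were counted by a size rule of 2-fold. At day 7 the treated array was at least 2-fold higher for 8 members (18.6%; 6.05% of all genes) and at least 2-fold lower for 7 (16.3%; 6.79% of all genes). At day 10 it was higher for 2 members (4.65%; 7.39% of all genes) and lower for 11 (25.6%; 6.21% of all genes). The members past 2-fold higher at day 7 were Cyp2b19, Cyp2c37, Cyp2c38, Cyp2c54, Cyp2c68, Cyp2j13, Cyp2j9 and Cyp3a13. Of these, Cyp2j13 alone was also past 2-fold higher at day 10 (1.76% of all genes were past 2-fold higher at both days). The other 7 of them (16.3%) were past 2-fold higher at day 7 alone, beside 4.29% of all genes. Cyp1a2, Cyp2c23, Cyp2c55 and Cyp2u1 were past 2-fold lower at both days, beside 1.4% of all genes. The 7 members past 2-fold lower at day 10 but not at day 7 (16.3%; 4.82% of all genes) were Cyp2a12, Cyp2b19, Cyp2c29, Cyp2d9, Cyp2f2, Cyp2j9 and Cyp3a44. Cyp2b19 and Cyp2j9 were past 2-fold in opposite directions at the 2 days (4.65%; 1.09% of all genes). The median daily log2 difference of the 43 members was 0.03 at day 7 and -0.19 at day 10, beside 0 on both days over all genes. All genes include those under the floor on both sides, which count as 0 and cannot pass 2-fold. This holds for every share over all genes given here. Above the filter on dim genes the medians were 0.06 and -0.33 for 36 members, beside -0.06 and 0.01 for 11993 genes. With quantile normalization the day 7 median of the 43 members was -0.12, so its sign depends on the scaling. Of the 43 members 22 stayed within 2-fold at both days. Among the 28 measured genes of P450 families 4 and above, 4 were past 2-fold higher and 5 past 2-fold lower at day 7. At day 10, 1 was higher and 5 were lower by the same rule. The difference between those families and families 1 to 3 was not tested.

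**Figure D2:**
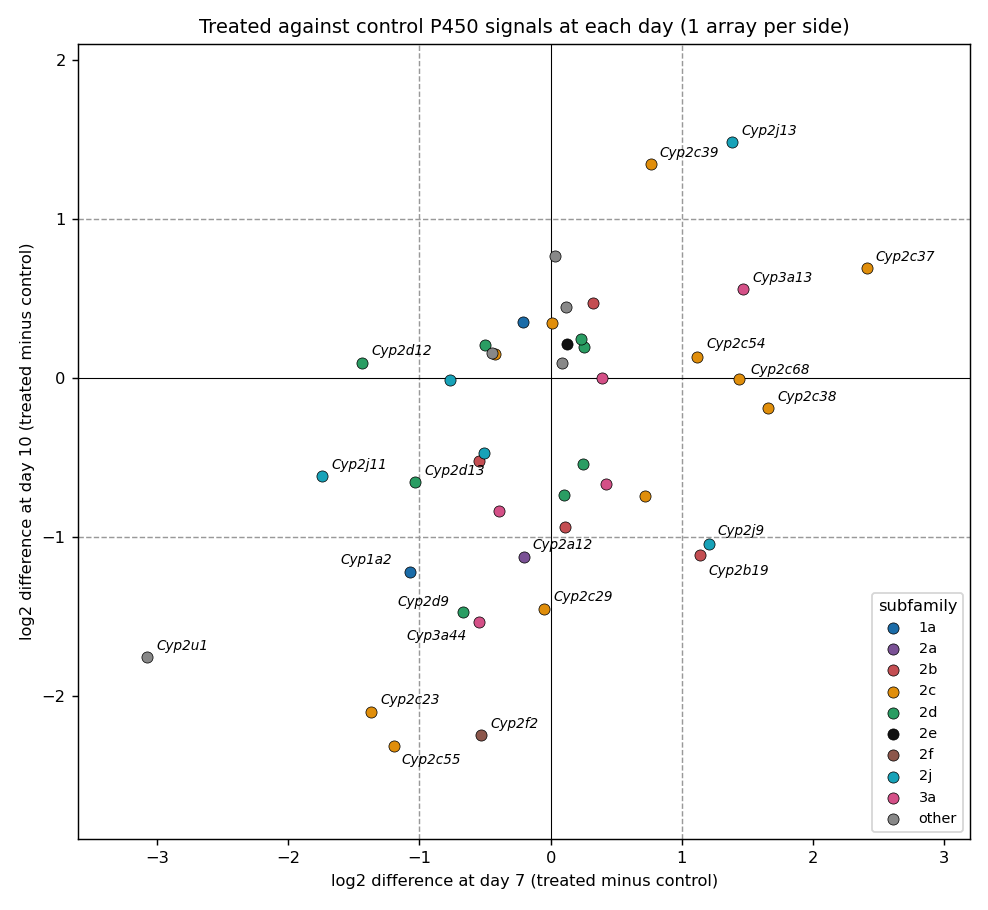
Log2 difference between the treated and the control array at day 7 (x axis) and at day 10 (y axis) for the 43 P450 genes, 1 point per gene, coloured by subfamily, with dashed lines at 2-fold. Cyp2c23, Cyp2c55, Cyp1a2 and Cyp2u1 lie past 2-fold lower on both axes, whereas Cyp2c37 lies at 2.41 at day 7 and 0.69 at day 10.

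In subfamily 1a both genes were measured. Cyp1a2, which oxidises caffeine and aromatic amines and is made around the central vein, had signals of 22014 units at day 7 and 10812 at day 10 in control livers, and of 10444 and 4643 in treated livers. Both treated arrays were below both control arrays, but the treated array of day 7 was close to the control array of day 10. The difference was 2.11-fold at day 7 and 2.33-fold at day 10. Over both days it was -1.15 ± 0.48 on the log2 scale (SE, n = 2 arrays per group; limma adjusted p = 0.418). The value depended on single arrays. It was -1.73 without the treated array of day 7 (limma adjusted p = 0.0259, when 10 members and 2.24% of all genes tested were called lower), but -0.56 without that of day 10 (adjusted p = 0.534) and -0.63 without the control array of day 7 (adjusted p = 0.873). The AHR-induced Cyp1a1 had 515 and 425 units in control and 446 and 543 in treated livers, and its groups overlapped. Ahr itself, the receptor gene, had 1162 and 1032 units in control and 2363 and 2231 in treated livers (limma adjusted p = 0.11). Of 4 AHR targets outside the P450 family, 2 of them above the filter, none passed limma's test and none had an unadjusted p under 0.05. They include the ADP-ribosyltransferase gene Tiparp (1016 and 919 against 1120.5 and 1338 units), and Ahrr was at the floor on all arrays.

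Subfamily 2a was represented by Cyp2a12, a steroid hydroxylase. Its signals were 22744 and 23792 units in control livers and 19719.9 and 10906 in treated livers at day 7 and day 10. The control arrays were close to each other, and the treated array of day 10 stood lowest, 2.18-fold below its control. Over both days the log2 difference was -0.67 ± 0.31 (SE, n = 2; limma adjusted p = 0.471).

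The 4 Cyp2b genes had signals from 116 to 552 units, and none of the 3 tested passed. Cyp2b10, the best known CAR target, read 433 and 552 units in control and 468 and 288 in treated livers, with overlapping groups. Its 3 probe sets had the same order of the day 10 arrays, with log2 differences of -0.94, -1.42 and -0.73 at day 10 and of 0.11, 0.29 and 1.14 at day 7. Cyp2b9, a female-biased gene in mice, had 489 and 526 units in control and 334 and 366 in treated livers. Here the daily differences were alike (-0.55 and -0.52), the groups did not overlap, and the difference over both days did not pass (limma adjusted p = 0.466). Cyp2b13, also female-biased, had signals from 184 to 347 units in overlapping groups. Cyp2b19, known from skin, was under the filter on dim genes, with 116 and 309 units in control and 255 and 143 in treated livers.

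The 11 measured Cyp2c genes held both the member that fell and 4 of the 8 members past 2-fold higher at day 7. Cyp2c23, also named Cyp2c44, had 10213 units at day 7 and 13097 at day 10 in control livers (11655 ± 2039, mean ± SD, n = 2). In treated livers it had 3955 and 3056 units (3506 ± 635, n = 2). Both treated arrays were far below both control arrays, and the 2 arrays of a group were within 1.29-fold of each other. The log2 difference was -1.37 at day 7, -2.10 at day 10 and -1.73 ± 0.24 over both days (SE; limma adjusted p = 0.0455). The call sat at the threshold: the adjusted p was 0.142 with day as a replicate block, 0.106 without limma's intensity trend, 0.0781 with the mean of each gene's probe sets, 0.253 without the filter, 0.199 without the control array of day 7 and 0.33 without that of day 10. Its only probe set has the suffix _s_at, which Affymetrix gives to probes that can match several transcripts.

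Cyp2c55, a hydroxylase of arachidonic acid best known from the intestine, had 896 and 854 units in control and 392 and 172 in treated livers. The control arrays were nearly equal, both treated arrays were lower, and the treated array of day 10 was the lowest. The difference was 2.29-fold at day 7 and 4.97-fold at day 10, and -1.75 ± 0.41 on the log2 scale over both days (SE, n = 2; limma adjusted p = 0.172). The log2 difference was -2.35 without the treated array of day 7 and -1.16 without the treated array of day 10. It was -1.72 without the control array of day 7 and -1.79 without the control array of day 10.

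Cyp2c37, which hydroxylates arachidonic acid, had the highest daily difference of the 43 members at day 7. Its signals were 6531 and 4004 units in control livers and 34681 and 6454 in treated livers, so that the treated array of day 7 stood alone and the treated array of day 10 was level with the control array of day 7. The treated signal exceeded its control 5.31-fold at day 7 and 1.61-fold at day 10 (over both days 1.55 ± 0.73, SE, n = 2; limma adjusted p = 0.476). Without the treated array of day 10 the difference was 2.76 (limma adjusted p = 0.000967), and Cyp2c37, Cyp2c68 and Cyp3a13 were called higher beside 1.45% of all genes tested (2 members, Cyp2c23 and Cyp2u1, were called lower beside 1.3%). Without the treated array of day 7 it was 0.34 (adjusted p = 0.662).

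Cyp2c54, an epoxygenase, had 5727 and 2429.8 units in control and 12437 and 2657 in treated livers. Cyp2c50, another arachidonic acid epoxygenase, had 26111 and 11384 units in control and 42875 and 6793 in treated livers. In both genes the treated array of day 7 was the highest of the 4 and both day 7 arrays were above both day 10 arrays. Over both days Cyp2c50 differed by -0.01 ± 0.84 (SE, n = 2), the mean of a higher signal at day 7 and a lower one at day 10.

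Cyp2c38 had 1015 and 1942 units in control and 3205 and 1703 in treated livers. Cyp2c68 had 7239 and 10304 units in control and 19631 and 10244 in treated livers. Each was thus highest on the treated array of day 7 (3.16-fold and 2.71-fold above its control) and had similar signals in both groups at day 10. Cyp2c39, a retinoic acid hydroxylase, had 398 and 103 units in control and 676 and 261 in treated livers; it was past 2-fold higher at day 10, when both its signals were below those of day 7. Cyp2c29, an abundant epoxygenase, had 22642 and 16951 units in control and 21853 and 6196 in treated livers. Its treated array of day 10 was 2.74-fold below its control, and the other 3 arrays lay within 1.34-fold of each other. Cyp2c70, which makes the muricholic bile acids of mice, had 28984 and 22114 units in control and 29214 and 28053 in treated livers, with overlap (log2 difference 0.18 ± 0.23, SE, n = 2; limma adjusted p = 0.799). Cyp2c65 was under the filter, with 121.6 and 23.2 units in control and 90.4 and 71.8 in treated livers.

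RefSeq's annotation (GRCm38.p6) lists 15 Cyp2c genes on mouse chromosome 19, of which 11 were measured. They were put in order of position, without regard to distances or to other genes between them. In that order Cyp2c55 is the first and Cyp2c23 the last, and these 2 had the lowest daily differences of the 11 at day 7 and at day 10. The 6 consecutive measured genes from Cyp2c39 through Cyp2c38, Cyp2c68, Cyp2c37 and Cyp2c54 to Cyp2c50 all had a higher signal in treated livers at day 7, with log2 differences from 0.72 to 2.41. At day 10 the same 6 genes ranged from -0.74 to 1.34, and 3 were above 0; Cyp2c68, at -0.01, turned above 0 with quantile normalization.

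**Figure D3:**
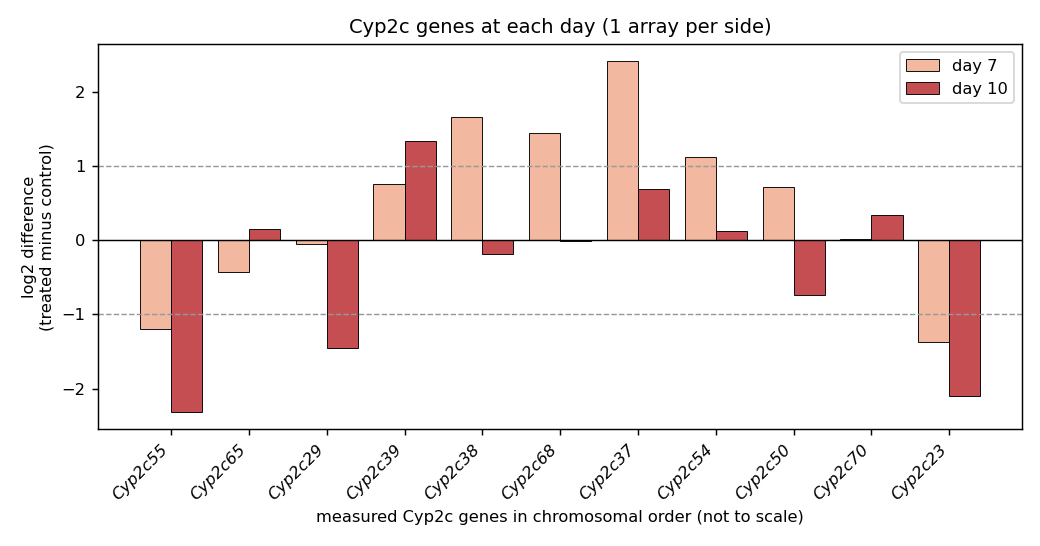
Log2 difference between the treated and the control array (y axis) at day 7 (light bars) and day 10 (dark bars) for the 11 measured Cyp2c genes in their order on the chromosome (x axis, not to scale), with dashed lines at 2-fold. Bars rise above 0 at day 7 from Cyp2c39 to Cyp2c50, and the bars of Cyp2c55 and Cyp2c23 at the ends are below -1 at both days.

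The 250 bases before the start site of Cyp2c37 and of Cyp2c50 are shown because these genes were the closest pair among the Cyp2c members with an entry (84.3% identical over 255 aligned columns) and both were highest on the treated array of day 7. Sequences are RefSeq's, build GRCm38.p6, written 5′ to 3′ toward the gene, and capitals mark the 35 bases of each that differ from or are missing in the other. Cyp2c37 covers chr19:39992174-39992423 (plus strand) and Cyp2c50 chr19:40089429-40089678 (plus strand).
Cyp2c37: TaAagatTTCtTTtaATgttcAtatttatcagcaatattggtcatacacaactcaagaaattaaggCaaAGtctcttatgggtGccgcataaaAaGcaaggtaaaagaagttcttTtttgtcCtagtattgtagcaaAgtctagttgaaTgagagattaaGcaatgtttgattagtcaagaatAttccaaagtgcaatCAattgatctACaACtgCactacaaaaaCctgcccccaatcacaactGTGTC
Cyp2c50: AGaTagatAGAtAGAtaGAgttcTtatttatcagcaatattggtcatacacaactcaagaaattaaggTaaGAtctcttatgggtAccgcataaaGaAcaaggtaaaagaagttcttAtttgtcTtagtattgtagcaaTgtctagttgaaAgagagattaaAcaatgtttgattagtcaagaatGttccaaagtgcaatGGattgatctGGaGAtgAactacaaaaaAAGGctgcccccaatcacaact
The other Cyp2c pairs among members with an entry were 45.5% to 75.8% identical. An entry was found for 35 of the 43 members, and Cyp2c23, Cyp2c54 and Cyp2u1 had none.

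Of the 8 Cyp2d genes, Cyp2d9, a male-biased testosterone hydroxylase, had 28611 and 20035 units in control and 17965 and 7218 in treated livers. Both treated arrays were below both control arrays, and the treated array of day 10 stood apart. The difference was 1.59-fold at day 7 and 2.78-fold at day 10 (over both days -1.07 ± 0.44 on the log2 scale, SE, n = 2; limma adjusted p = 0.413). Cyp2d26 had 18755 and 18820.4 units in control and 22425 and 21527 in treated livers. Its groups did not overlap but were only 1.17-fold apart, and limma's adjusted p was 0.698. Cyp2d10 had 21154 and 21279 units in control and 22759 and 12769 in treated livers, so that only the treated array of day 10 differed from the other 3 by more than 1.5-fold. Cyp2d22, regarded as the mouse counterpart of the human drug-metabolising CYP2D6, had its highest and its lowest signal in the treated group (5215 and 4449 against 6197 and 3052 units). Cyp2d13 had 1336 and 1246 units in control and 654 and 790.1 in treated livers, without overlap (log2 difference -0.84 ± 0.22, SE, n = 2; limma adjusted p = 0.212). Its other probe set gave -0.73. Cyp2d34 and Cyp2d40 had signals from 221 to 417 units on all arrays and stayed within 1.5-fold at both days. Cyp2d12 was under the filter, and its control array of day 7 (226 units) was above the other 3, which read from 83.7 to 93.1.

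Cyp2e1, which oxidises ethanol and acetaminophen around the central vein, had 66423 and 56708 units in control and 72351 and 65798 in treated livers. The groups overlapped, and the log2 difference was 0.17 ± 0.22 (SE, n = 2; limma adjusted p = 0.801). Cyp2f2, which activates naphthalene and in the liver is found around the portal vein, had 38117 and 41254 units in control and 26394 and 8679 in treated livers. The control arrays were within 1.08-fold, the treated array of day 7 was 1.44-fold below its control and that of day 10 4.75-fold. Over both days the log2 difference was -1.39 ± 0.49 (SE, n = 2; limma adjusted p = 0.349). It was -2.19 without the treated array of day 7 and -0.59 without that of day 10, each a fit with 1 treated array. Markers of the same zones outside the P450 family were measured too. Of 9 pericentral markers none passed limma's test (2 were higher at an unadjusted p under 0.05). Their median log2 difference was 0.12 over both days, -0.04 at day 7 and 0.28 at day 10. At both days 3 of them were higher and 0 lower, beside 22.9% and 26.4% of all genes. The largest difference of the list was that of glutamine synthetase Glul, with 7508 and 5441 units in control and 16623 and 12521 in treated livers (limma adjusted p = 0.158). Of 8 periportal markers none passed (1 lower at that p), with a median log2 difference of -0.0037.

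Among the 5 Cyp2j genes the brightest, the epoxygenase Cyp2j5, had 13143 and 14509 units in control and 7737 and 14394 in treated livers. Here the treated array of day 7 was the low one (1.70-fold), and the day 10 arrays were nearly equal. A dimmer probe set of the gene had log2 differences of -1.37 at day 7 and -0.36 at day 10. Cyp2j6 had 1038 and 859.6 units in control and 729 and 619.8 in treated livers without overlap, and did not pass (limma adjusted p = 0.466). On its dimmer probe set the groups overlapped, with 591.2 and 331.4 units in control and 489.1 and 447.1 in treated livers. The log2 difference there was 0.08 over both days. Cyp2j13 was under the filter, with control signals of 52.3 and 18.7 units that are both below the floor and treated signals of 169 and 181. Its treated signal was thus at least 2.61-fold higher (day 7) and at least 2.80-fold higher (day 10). Cyp2j11, also under the filter, had 217 and 167 units in control and 45.8 and 109 in treated livers.

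Of the 5 Cyp3a genes, Cyp3a11, the main drug-oxidising PXR target of mouse liver, had 53550.0 and 49777 units in control and 40733 and 27848 in treated livers. The groups did not overlap, with the lowest signal on the treated array of day 10. The difference was 1.31-fold at day 7 and 1.79-fold at day 10 (over both days -0.62 ± 0.26 on the log2 scale, SE, n = 2; limma adjusted p = 0.419). Cyp3a13, a form also abundant in the intestine, went the other way, with 4994 and 5951 units in control and 13831 and 8774 in treated livers. Both treated arrays were above both control arrays, 2.77-fold at day 7 and 1.47-fold at day 10 (1.01 ± 0.28, SE, n = 2; limma adjusted p = 0.236). Cyp3a25 had 28064 and 24535 units in control and 37597 and 15411 in treated livers, with the highest and the lowest signal both in the treated group. Cyp3a16 and Cyp3a44, which are female-biased in mice, were under the filter, with signals from 21.5 to 84.9 and from 78.9 to 303 units. Cyp3a11, Cyp3a13, Cyp3a25 and Cyp3a44 had a lower log2 difference at day 10 than at day 7, as did 43.0% of all genes; Cyp3a16 was under the floor on 3 of its 4 arrays.

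Of the other 5 genes, Cyp2u1 had 1181 and 960.2 units in control and 140.0 and 284 in treated livers. Both treated arrays were far below both control arrays, 8.44-fold at day 7 and 3.38-fold at day 10. The log2 difference was -2.42 ± 0.38 (SE, n = 2; limma adjusted p = 0.0627). When arrays were scaled to equal medians it passed, at an adjusted p of 0.0367. Its other probe set, with 411.6 and 405.6 units in control and 298.7 and 281.2 in treated livers, gave only -0.50, so that the size of the difference depended on the probes. Cyp1b1, known mainly outside the liver, had 411 and 216 units in control and 421 and 368 in treated livers. Cyp2r1, the vitamin D hydroxylase, Cyp2s1 and Cyp2g1 stayed within 1.5-fold at both days, with signals from 324 to 735 units over the 3 genes.

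The second comparison described day 10 against day 7 within each group, again with 1 array per side and no test. In control livers 5 members were at least 2-fold lower at day 10 (11.6%; 4.95% of all genes), Cyp1a2, Cyp2c39, Cyp2c50, Cyp2c54 and Cyp2d12, and 2 were higher (4.65%; 3.83%), Cyp2b19 and Cyp3a44. In treated livers 12 were lower (27.9%; 5.21% of all genes) and 1 was higher (2.33%; 5.69%), Cyp2u1. The 12 were led by Cyp2c50 (6.31-fold), Cyp2c37 (5.37-fold), Cyp2c54 (4.68-fold), Cyp2c29 (3.53-fold) and Cyp2f2 (3.04-fold). Cyp1a2, Cyp2c39, Cyp2c50 and Cyp2c54 were past 2-fold lower at day 10 in both groups. In controls Cyp2c50 was 2.29-fold and Cyp2c54 2.36-fold lower at day 10, so the daily comparisons of these genes had different control levels. With the mean of both control arrays as the base of each day, the median member difference at day 10 was -0.47 in place of -0.19. The treated-control difference was lower at day 10 than at day 7 in 23 of the 43 members (53.5%; 43.0% of all genes), and by at least 2-fold in 11 (25.6%; 8.71%). It was at least 2-fold higher at day 10 in 3 members (6.98%; 11.2%), Cyp2d12, Cyp2j11 and Cyp2u1.

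**Figure D4:**
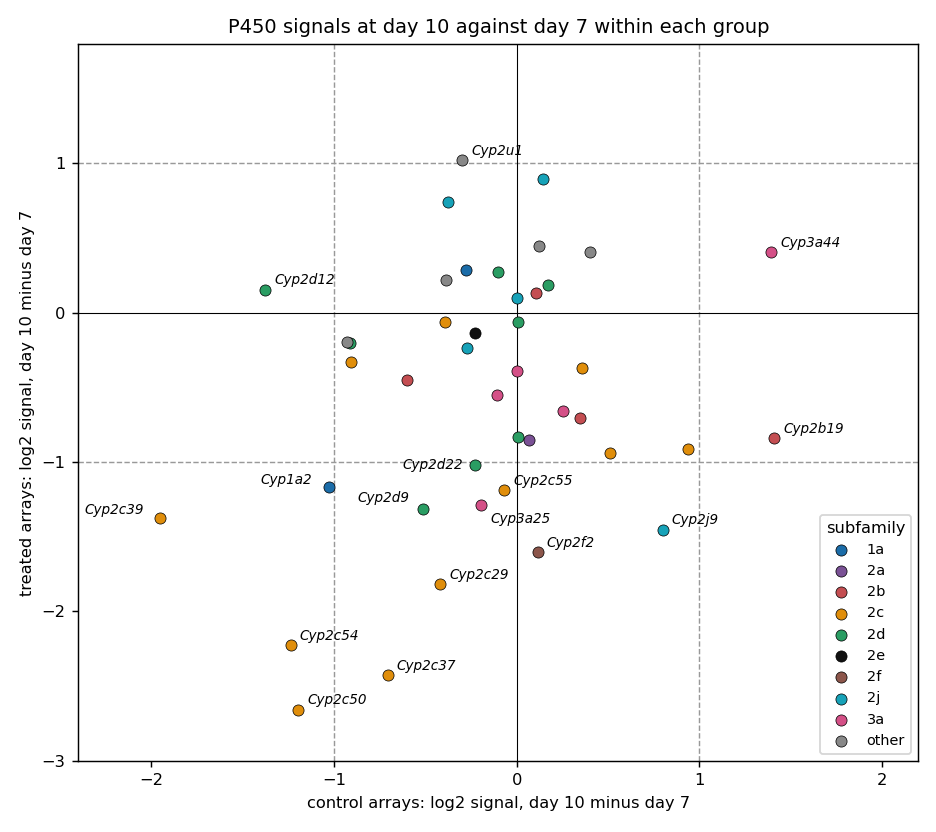
Log2 signal at day 10 minus day 7 in control livers (x axis) and in treated livers (y axis) for the 43 P450 genes, 1 point per gene, coloured by subfamily, with dashed lines at 2-fold. More points lie below the lower dashed line (12 in treated livers) than left of the left one (5 in control livers), with Cyp2c50, Cyp2c37 and Cyp2c54 lowest.

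Promoter windows of the 35 members with a RefSeq entry (the 250 bases before the start, both strands) were searched for letters that known regulators bind. The HNF4A letters CAAAGTCCA were found in 5 windows (14.3%), those of Cyp2c65, Cyp2c68, Cyp2c70, Cyp3a11 and Cyp3a16, against 0.381% of all 27025 windows. The TATA box letters TATAAA were in 17 windows (48.6% against 13.0%), and the C/EBP letters TTNNGCAA in 7 (20.0% against 9.55%). The TATAAA matches were counted at any position, from 19 (Cyp2c29) to 234 bases (Cyp3a11) before the start, so not each is placed as a TATA box. Other letters were less frequent in the members: the AHR core GCGTG in 6 (17.1% against 28.2%), the nuclear receptor half-site AGTTCA in 2 (5.71% against 11.9%) and the STAT5 letters TTCNNNGAA in 1 (2.86% against 7.18%). These letters do not contain each other. Such matches describe sequence and are not measured binding sites, and members of one subfamily share ancestry.

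The windows of Cyp2c68 and Cyp3a11 are shown because both hold the HNF4A letters and their signals differed in opposite directions at day 7. Cyp2c68 covers chr19:39741102-39741351 and Cyp3a11 chr5:145879855-145880104, both on the minus strand and written 5′ to 3′ toward the gene, with the match in capitals, 77 and 109 bases before the start.
Cyp2c68: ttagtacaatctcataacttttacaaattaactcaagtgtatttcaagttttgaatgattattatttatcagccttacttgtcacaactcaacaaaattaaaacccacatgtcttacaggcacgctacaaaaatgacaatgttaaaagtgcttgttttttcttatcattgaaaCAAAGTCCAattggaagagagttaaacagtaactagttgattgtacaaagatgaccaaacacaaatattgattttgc
Cyp3a11: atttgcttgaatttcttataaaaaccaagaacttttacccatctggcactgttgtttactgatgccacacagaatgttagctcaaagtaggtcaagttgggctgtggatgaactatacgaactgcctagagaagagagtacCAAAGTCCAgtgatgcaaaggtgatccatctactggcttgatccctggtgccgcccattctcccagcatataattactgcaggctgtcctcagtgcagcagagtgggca
Hnf4a, the gene of that factor, had 10643 and 13262 units in control and 22745 and 20477 in treated livers (limma adjusted p = 0.212), but another probe set of it gave a log2 difference of -0.25. The windows of Cyp1a2 and Cyp2e1 are shown because both genes are pericentral and hold the TATA letters at almost the same place, 29 and 31 bases before the start, while their treated signals stood 2.22-fold lower and 1.12-fold higher over both days. Cyp1a2 covers chr9:57683656-57683905 (minus strand) and Cyp2e1 chr7:140763569-140763818 (plus strand), with the TATA letters in capitals.
Cyp1a2: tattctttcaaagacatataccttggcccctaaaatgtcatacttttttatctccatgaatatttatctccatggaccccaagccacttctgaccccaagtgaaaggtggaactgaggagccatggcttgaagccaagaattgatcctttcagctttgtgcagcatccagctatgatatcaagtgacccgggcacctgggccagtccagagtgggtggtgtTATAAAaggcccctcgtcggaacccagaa
Cyp2e1: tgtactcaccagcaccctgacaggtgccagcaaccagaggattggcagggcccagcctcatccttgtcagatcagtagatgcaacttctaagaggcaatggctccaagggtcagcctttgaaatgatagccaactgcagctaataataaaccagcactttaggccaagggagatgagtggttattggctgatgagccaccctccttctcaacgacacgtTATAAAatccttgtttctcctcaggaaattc

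The genes that serve or control these enzymes were counted by lists. Of 24 measured P450 regulators 1 rose, the C/EBP factor gene Cebpb, with 3108 and 2942 units in control and 8564 and 9501 in treated livers (2.98-fold; limma adjusted p = 0.0307, and 0.116 with day as a replicate block, 0.0819 without the trend, 0.0923 with averaged probe sets, 0.11 without the filter, and 0.259 and 0.325 without the control array of day 7 or day 10). None fell, and the list's median log2 difference was 0.30 over both days, 0.35 at day 7 and -0.24 at day 10. Some regulators were higher at day 7 and lower at day 10, among them Dbp (1.82, then -0.74) and Tef (1.83, then -0.44). Hlf (0.94, then -0.61) and Nr1h4 (1.63, then -0.80) did so too, whereas Cebpa turned the other way (-0.37, then 0.08). At an unadjusted p under 0.05, limma placed 5 regulators higher, Cebpb included, and 3 lower, beside 5.93% and 6.15% of all genes tested. Nr1i3, the gene of CAR, had 1615 and 666 units in control and 6930.3 and 2328 in treated livers. Its treated arrays were both above the control arrays, 3.87-fold over both days, without passing (limma adjusted p = 0.284). Bcl6, a repressor involved in sex differences of liver genes, had 278 and 1249.5 units in control and 117 and 280.5 in treated livers with overlap. Of 7 measured CAR and PXR targets outside the P450 family none passed limma's test (1 was higher and 3 lower at an unadjusted p under 0.05), and the median log2 difference was -0.46. The transporter gene Slco1a4 had 365 and 763 units in control and 4050.2 and 1137 in treated livers. The glutathione transferase Gstm3 had 9180.5 and 9749.5 units in control and 4402 and 2689.8 in treated livers, and the carboxylesterase Ces2a 7207 and 9135 against 3881 and 1777. The list thus held genes with higher and with lower treated signals.

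Of 4 measured electron donors and partners none passed limma's test (2 were lower at an unadjusted p under 0.05), and the median log2 difference was -0.65. Cytochrome b5 reductase Cyb5r3 had 14895 and 15744 units in control and 8992 and 6829 in treated livers, without overlap (limma adjusted p = 0.174). The P450 reductase gene Por had no probe set with a single symbol and was not analysed here. Of 11 measured genes of heme synthesis and breakdown none passed limma's test either (2 were higher at an unadjusted p under 0.05; median log2 difference 0.39), and 8 had a higher signal in treated livers at both days, as did 22.9% of all genes. Alas1, which makes the first and rate-limiting step of heme synthesis, had 6273 and 2633 units in control and 10878 and 6677 in treated livers. Among 19 measured other phase 1 enzymes, 18 of them above the filter, aldehyde oxidase Aox3 fell 5.16-fold, from 15725 and 19714 to 3059.7 and 3799 units (limma adjusted p = 0.0144, and 0.178 without the filter, 0.0976 and 0.184 without the control array of day 7 or day 10). None of these enzymes rose (0 were higher and 9 lower at an unadjusted p under 0.05, beside 5.93% and 6.15% of all genes tested), their median log2 difference was -0.38, and 11 had a lower signal at both days, as did 26.4% of all genes. The epoxide hydrolases Ephx1 (10545 and 17428 against 5116 and 1534 units) and Ephx2 (16335 and 19056 against 8131 and 5059 units) were lower on both treated arrays without passing (limma adjusted p = 0.199 and 0.112).

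**Figure D5:**
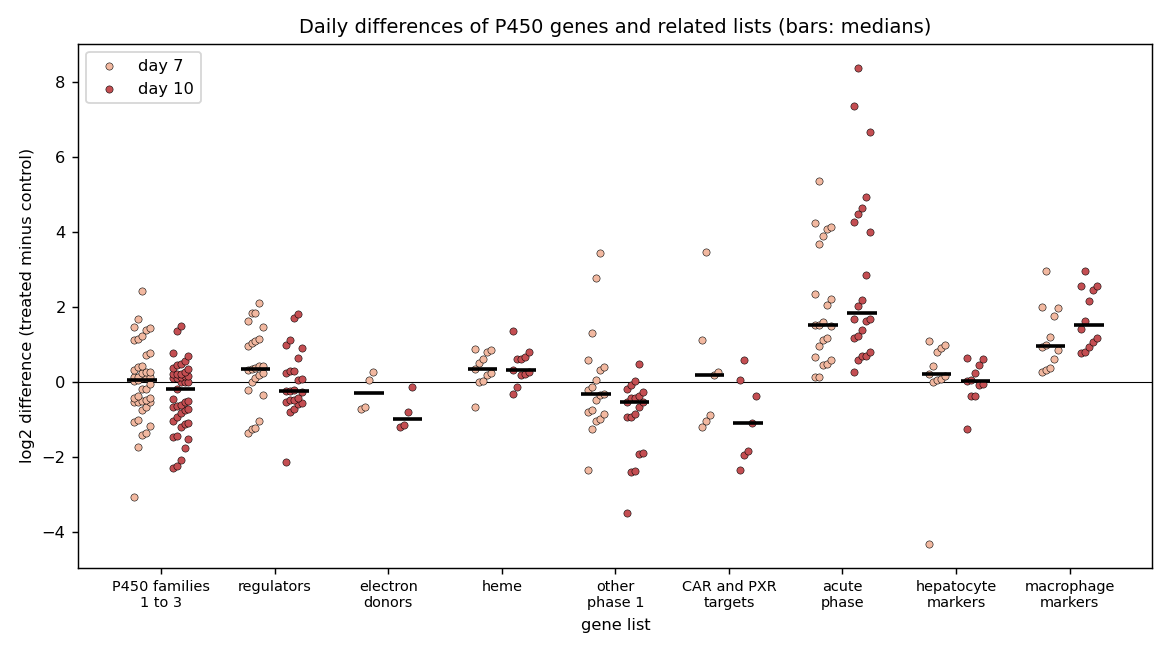
Log2 difference between the treated and the control array for every measured gene of 9 lists (x axis) at day 7 (light points) and day 10 (dark points), with bars at the medians. The points of the acute phase and macrophage lists all lie above 0, and the P450 genes of families 1 to 3 spread to both sides of 0, from -3.08 to 2.41 at day 7 and from -2.31 to 1.48 at day 10.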

How the data were processed

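The deposited values come from MAS5, per the submitters' processing notes; no version was stated in the sources used here. They are linear signal intensity values per probe set, deposited for 4 arrays, with a mean of 500 units after trimming 2% at each end, as the values show. Of 45101 probe sets 64 were array controls, and 34945 had a single gene symbol (99.4% matched RefSeq's table, GRCm38.p6). From these values, signals were raised to a floor at the 25th percentile (64.8), put on the log2 scale, and the brightest probe set represented each of 18193 genes. The filter on dim genes was the median of probe set means (log2 7.67, a signal of 204). The 11993 genes above it were tested with limma 3.58.1 in R 4.3.3 (two-sided, with an intensity trend, adjusted p under 0.05 by Benjamini-Hochberg, 2 arrays per group, no day term, 2 residual degrees of freedom). Single days were described by size, with log2 differences treated minus control. Where all arrays of a group were under the floor, the fold is a lower bound.

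Members and gene lists were chosen with earlier results of these data known. Named in full by rule were members that passed, the brightest control signal of each subfamily, those past 2-fold the same way at both days and those past 2-fold in opposite directions. The Cyp2c, Cyp2d and Cyp3a genes given beyond these, and the promoters other than that of Cyp2e1, were chosen after their values were seen. Replicate numbers stand for days, so that day as a replicate block pairs the arrays of a day. Over the 11993 genes the change from day 7 to day 10 in control and in treated livers correlated with r = -0.0691. One promoter motif is not reported here. The limma step was run on simulated data with known changes and no day effect. The share of those changes that it recovered is not given here. Alternatives were quantile normalization, equal medians, other floors and filters, the mean of probe sets, no trend, the day block, each array left out, and other thresholds. Python 3.11.15 with matplotlib 3.10.9 drew the figures. Having 4 arrays limits the precision throughout.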

Additional observations from a re-analysis of the deposited data

Results flagged for a closer look

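Cyp2b19 and Cyp2j9 were singled out because their daily differences ran past 2-fold in opposite directions (1.09% of all genes did so). Cyp2b19, under the filter on dim genes, had 116 and 309 units in control and 255 and 143 in treated livers, a log2 difference of 1.14 at day 7 and -1.11 at day 10. Cyp2j9, known from the brain, had 217 and 378 units in control and 501 and 183 in treated livers, a log2 difference of 1.21 at day 7 and -1.05 at day 10. In both genes the control and the treated signal moved in opposite directions between the days. With 1 array per group and day the difference between days was not tested.

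A pair of probe sets that the annotation assigns to several symbols of these families entered no gene count, and no gene is named from them. One, of subfamily 3a, had 342.9 and 427.7 units in control and 1811 and 977 in treated livers, a log2 difference of 2.40 at day 7 and 1.19 at day 10, both above the control level. The other, of subfamily 2a, had 8429.9 and 17383 units in control and 42413 and 2951 in treated livers, a log2 difference of 2.33 at day 7 and -2.56 at day 10. Its treated signals were thus the highest and the lowest of its 4 arrays.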

How the results depend on the processing

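The number of members called lower, 1 in the fit described, was 2 with arrays scaled to equal medians and with an adjusted p under 0.1. It was 0 with day as a replicate block, without the filter, with averaged probe sets and without the intensity trend, and from 0 to 10 when each array was left out. Members called higher, 0 in the fit described, ranged from 0 to 3 when each array was left out. Leaving out an array left its group with 1 array, which is assumed to vary like the other group. Without the treated array of day 7, 10 members were lower (Cyp1a2, Cyp2a12, Cyp2c23, Cyp2c29, Cyp2c55, Cyp2d9, Cyp2f2, Cyp2u1, Cyp3a11 and Cyp3a25), beside 2.24% of all genes tested. Without that of day 10, 2 were lower (Cyp2c23 and Cyp2u1; 1.3% of all genes) and 3 higher (1.45%). Without either control array 0 were called. Genes of the pathway lists (acute phase and cell type markers not counted) called lower, 1 in the fit described, were 0 without the filter and from 0 to 11 with each array left out. Those called higher, 1 in the fit described, were 0 in the same 4 settings, and from 0 to 9 with each array left out.

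The size counts followed their threshold and filter. Lower at day 7 were 3 with a filter at the 75th percentile and 2 at 3-fold, and higher at day 7 were 5 and 2. Lower at day 10 were 6 with that filter, 18 at 1.5-fold and 4 at 3-fold. Higher at day 10 were 0 with a floor at the 40th percentile, with that filter and at 3-fold, 4 at 1.5-fold, and 1 with a filter at the median or with both controls as the base, settings that were chosen after seeing the data. Lower at both days were 2 with the filter at the 75th percentile, 7 at 1.5-fold and 1 at 3-fold, and higher at both days were 0 with a floor at the 40th percentile, with either filter and at 3-fold, and 3 at 1.5-fold. The median difference at day 10 was -0.47 with a floor at the 10th percentile or with both controls as the base, and -0.54 with the filter at the 75th percentile.

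Signs turned for differences near 0 or that differed between days. With each array left out in turn, the log2 difference ranged from -1.66 to 0.16 for Cyp2c29, from -1.34 to 1.31 for Cyp2c50 (0.58 without the control array of day 7), from -0.49 to 1.74 for Cyp2c54, from -0.018 to 0.37 for Cyp2c70, from -0.84 to 0.060 for Cyp2j5, from -0.65 to 0.81 for Cyp2j9 (-0.32 without the control array of day 7) and from -0.77 to 0.52 for Cyp3a25. Cyp2c50 was 0.0022 with equal medians, and Hnf4a -0.25 on another probe set. For results that moved beyond the construction of a setting the cause was not tested.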
